A study of Mus musculus with 6 samples.

Results

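The 39 Hox genes listed in the deposited tables are described here, as they were expressed in NSC-34 cells. They were found by their symbols, the letters Hox followed by a cluster letter (a to d) and a number, and they make up 39 of 23038 listed genes: 11 in the HoxA cluster, 10 in HoxB, 9 in HoxC and 9 in HoxD. Messenger RNA was sequenced from 6 libraries of NSC-34 cells, a mouse hybrid line that comes from a fusion of neuroblastoma cells and embryonic spinal cord cells enriched in motor neurons and serves as a motor neuron-like (mMN) model. Cells of 3 libraries had received control siRNA (siNC) and those of the other 3 siRNA against Qk (siQk), the gene of the RNA-binding protein Quaking. Both groups were grown in DMEM with 10% FCS, and the study describes the replicates as independent cultures of this 1 line. Different siRNAs against Qk were used in the siQk libraries, and the labels do not give which library received which. Retinoic acid, which induces Hox genes in many cells, was used by the study to differentiate NSC-34 cells for other assays, and no label names it for these libraries.

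Hox genes encode homeodomain transcription factors that give cells along the body axis their positional identity. They lie in clusters, and their order within a cluster matches the order in which they are expressed from hindbrain to tail, so that genes of low paralog number (the 3′ end) mark anterior levels and genes of high number (the 5′ end) posterior ones. In the embryonic spinal cord, Hox5 genes are known for phrenic motor neurons, Hoxc6 for the forelimb level, Hoxc9 for the thoracic level and Hox10 genes for the lumbar level. Polycomb proteins keep inactive clusters silent, trithorax proteins maintain active ones, and TALE homeodomain proteins such as Pbx and Meis bind DNA together with Hox proteins.

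Library totals ran from 43000503 to 53565950 counts, and Hox genes took 11258 to 17912 of them, 0.0262% to 0.0378% of a library. Qk, the target of the siRNA, had 9.67, 8.18 and 14.9 RPKM in siNC and 1.39, 1.71 and 1.10 RPKM in siQk, so that 12.8% of the siNC mean was left and the groups did not overlap. Its log2 fold change was -2.99 (SE 0.34, adjusted p = 0.0136, quasi-likelihood F test of edgeR). siQk replicate 2 stood apart from the other libraries on the first principal component of all tested genes (41.2% of the variance) and siNC replicate 3 on the second (28.9%). The motor neuron label was checked against 7 markers. Chat, the acetylcholine-synthesizing enzyme, had 0.0297 to 0.141 RPKM, the choline transporter Slc5a7 0 to 0.0238 RPKM and Mnx1 0 to 0.0944 RPKM, and these defining markers were thus at or near 0. Isl1 (4.75 to 9.63 RPKM), Isl2 (2.65 to 4.96 RPKM) and the vesicular acetylcholine transporter Slc18a3 (1.56 to 2.29 RPKM) were present, and Lhx3 had 0.0758 to 0.516 RPKM. All 7 markers of sympathetic neurons and neuroblastoma had a mean of 1 RPKM or more, among them Hand2 (121 to 205 RPKM) and Phox2a (50.2 to 153 RPKM). The summed level of the motor neuron markers was 10.0 to 11.5 RPKM in siNC and 14.2 to 16.4 RPKM in siQk, and that of the sympathetic markers was 328 to 521 RPKM in siNC and 390.3 to 487 RPKM in siQk. Isl1, which sympathetic neurons also express, made up most of the difference in the motor neuron sum, with 4.75 to 4.83 RPKM in siNC and 7.80 to 9.63 RPKM in siQk, while the Slc18a3 values of the groups overlapped. Chat, at its low level, had 0.0297 to 0.0777 RPKM in siNC and 0.0997 to 0.141 RPKM in siQk, and Lhx3 had 0.0758 to 0.283 RPKM in siNC and 0.264 to 0.516 RPKM in siQk. The part of these markers in the Hox levels was not tested. Astrocyte, fibroblast and microglia markers summed to at most 0.222 RPKM in any library, and oligodendrocyte lineage markers to 5.78 to 8.68 RPKM, of which Olig2 and Sox10 were at or near 0. In bulk samples, fewer cells with a transcript and less of it per cell cannot be told apart.

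Levels are given in RPKM (reads scaled to exon length and to the library total), which can be compared between genes. Of the 39 Hox genes, 20 had a mean of 1 RPKM or more over the 6 libraries, 9 had counts but a lower mean, and 10 had no count in any library. For comparison, 51.2% of the 23038 listed genes had a mean of 1 RPKM or more and 21.9% had no count in any library. The 3 clusters with counts contributed almost equal parts of the summed Hox RPKM. HoxA gave 31.9% ± 1.64 (SD, n = 6 libraries), HoxC 34.6% ± 2.42 and HoxD 33.5% ± 2.79, and HoxB gave 0% in every library. In the HoxA cluster (chromosome 6, minus strand) 7 of 11 genes reached 1 RPKM, in HoxC (chr15:102921131-103036856, GRCm38, plus strand) 5 of 9, and in HoxD (chr2:74668225-74765142, plus strand) 8 of 9.

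**Figure D1:**
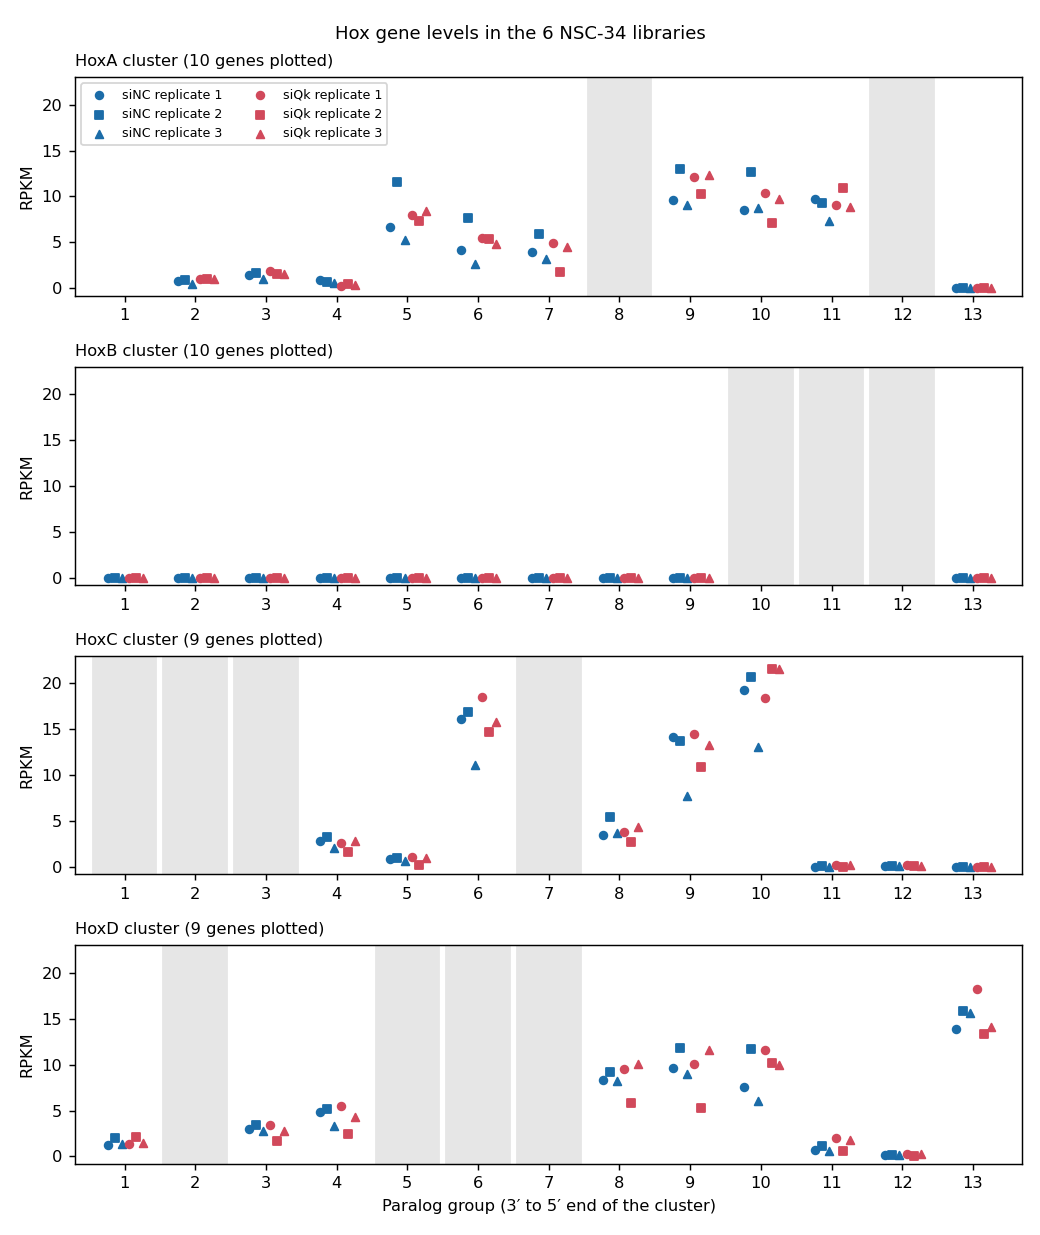
Level of 38 of the 39 Hox genes (RPKM, vertical axis) in each of the 6 libraries (3 siNC in blue, 3 siQk in red, marker shape for the replicate), by paralog group and cluster, with grey bands where a cluster has no gene. The middle and 5′ genes of HoxA, HoxC and HoxD carried most of the signal, Hoxd13 stood at 13.3 to 18.3 RPKM beside Hoxd12 near 0, and all 10 HoxB genes lay at 0.

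Anterior Hox genes were expressed at low levels. Hoxa2, which patterns the hindbrain and branchial arches, had a mean of 0.876 ± 0.204 RPKM (SD, n = 6 libraries). Hoxd1 had 1.21, 2.04 and 1.36 RPKM in siNC and 1.39, 2.11 and 1.42 RPKM in siQk. Of the paralog group 3 genes, Hoxa3 had 1.48, 1.65 and 0.988 RPKM in siNC and 1.92, 1.60 and 1.54 RPKM in siQk, and Hoxd3 had 2.996, 3.38 and 2.76 RPKM in siNC and 3.44, 1.72 and 2.82 RPKM in siQk. Both were thus present in all 6 libraries, and siQk replicate 2 had the lowest Hoxd3 value. Paralog groups 1 to 3 together gave 4.87% ± 0.303 of the summed Hox RPKM.

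Genes of paralog groups 4 and 5, which mark cervical levels, gave 10.1% ± 1.01, with Hoxa5 the highest of them. Hoxa5 had 6.68, 11.6 and 5.30 RPKM in siNC and 7.98, 7.31 and 8.40 RPKM in siQk, the widest siNC range of the HoxA genes, from siNC replicate 3 to siNC replicate 2, with the siQk values inside it. Its neighbour Hoxa4 had a mean of 0.517 ± 0.246 RPKM, and its paralog Hoxc5, likewise known for phrenic motor neurons, 0.813 ± 0.314 RPKM. Hoxc4 had 2.82, 3.26 and 2.03 RPKM in siNC and 2.67, 1.65 and 2.82 RPKM in siQk, and Hoxd4 had 4.87, 5.12 and 3.34 RPKM in siNC and 5.51, 2.43 and 4.25 RPKM in siQk. In both, siQk replicate 2 had the lowest value of the 6.

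The brachial and thoracic genes followed. Hoxc6, the forelimb-level gene, had 16.1, 16.9 and 11.1 RPKM in siNC and 18.5, 14.7 and 15.8 RPKM in siQk, the second highest mean of the family. Hoxa6 had 4.19, 7.61 and 2.69 RPKM in siNC and 5.49, 5.31 and 4.87 RPKM in siQk, and Hoxa7 had 3.99, 5.86 and 3.24 RPKM in siNC and 4.98, 1.82 and 4.48 RPKM in siQk. siQk replicate 2 stood apart for Hoxa7 at 40.4% of the mean of the other 5 libraries, but not for Hoxa6. Hoxc8, which takes part in brachial motor pool identity, had 3.53, 5.46 and 3.70 RPKM in siNC and 3.82, 2.75 and 4.40 RPKM in siQk, and Hoxd8 had 8.30, 9.18 and 8.26 RPKM in siNC and 9.47, 5.85 and 10.1 RPKM in siQk. The lowest of the 6 values was again that of siQk replicate 2 for both. Paralog groups 6 to 8 gave 23.4% ± 0.939 of the summed Hox RPKM.

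All 3 Hox9 genes outside HoxB were among the 6 highest of the family. Hoxc9, which represses forelimb-level motor neuron genes at thoracic levels in the embryo, had 14.2, 13.7 and 7.79 RPKM in siNC and 14.5, 10.9 and 13.3 RPKM in siQk. Hoxa9 had 9.57, 13.01 and 9.05 RPKM in siNC and 12.1, 10.3 and 12.3 RPKM in siQk, and Hoxd9 had 9.62, 11.8 and 8.97 RPKM in siNC and 10.02, 5.25 and 11.6 RPKM in siQk. The groups overlapped for each of them, and siQk replicate 2 had the lowest Hoxd9 value. This single paralog group gave 20.9% ± 1.18 of the summed Hox RPKM.

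Lumbar-level genes were the most abundant. Hoxc10 had the highest level of the family, 19.3, 20.7 and 13.1 RPKM in siNC and 18.4, 21.6 and 21.6 RPKM in siQk. Hoxa10 had 8.53, 12.7 and 8.76 RPKM in siNC and 10.3, 7.09 and 9.70 RPKM in siQk, and Hoxd10 had 7.58, 11.7 and 6.02 RPKM in siNC and 11.6, 10.2 and 9.99 RPKM in siQk. Between them, the Hox10 genes gave 24.2% ± 1.92 of the summed Hox RPKM, the largest part of any paralog group, and their share lay between 22.4% and 27.7% in every library. Hoxa11, known for limb and kidney patterning, had 9.72, 9.26 and 7.30 RPKM in siNC and 9.03, 10.9 and 8.85 RPKM in siQk. Hoxd11 was much lower, with 0.680, 1.13 and 0.621 RPKM in siNC and 2.06, 0.628 and 1.74 RPKM in siQk, and siQk replicates 1 and 3 lay above the other 4 libraries. Hoxc11 had 29 counts over the 6 libraries.

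At the 5′ end, 4 of the 5 genes of paralog groups 12 and 13 outside HoxB were near 0. Hoxd13, which patterns digits and the genital and caudal region, was the exception, with 13.9, 15.8 and 15.7 RPKM in siNC and 18.3, 13.3 and 14.1 RPKM in siQk. It varied least of the 20 expressed genes, with a coefficient of variation of 11.9% over the 6 libraries, against a median of 22.5% and a highest of 54.7%. Hoxd12, the next listed gene on the chromosome, had 120 counts over the 6 libraries and a mean of 0.168 ± 0.0683 RPKM. The RPKM of Hoxd13 was 96.7 times that of Hoxd12 on average (geometric mean, n = 6 libraries), with a range of 58.4 to 149.7 times. Hoxc12 had 26 counts, Hoxc13 16 and Hoxa13 1 count over all libraries. Evx2, the homeobox gene beyond Hoxd13, had 0.0138 to 0.292 RPKM, and Evx1, beyond Hoxa13, had no count. The level thus dropped sharply between neighbours also in HoxC, where Hoxc10 had 218 times the RPKM of Hoxc11 (geometric mean, range 85.4 to 530.0 times, n = 6), with only 2 to 10 counts of Hoxc11 per library.

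**Figure D2:**
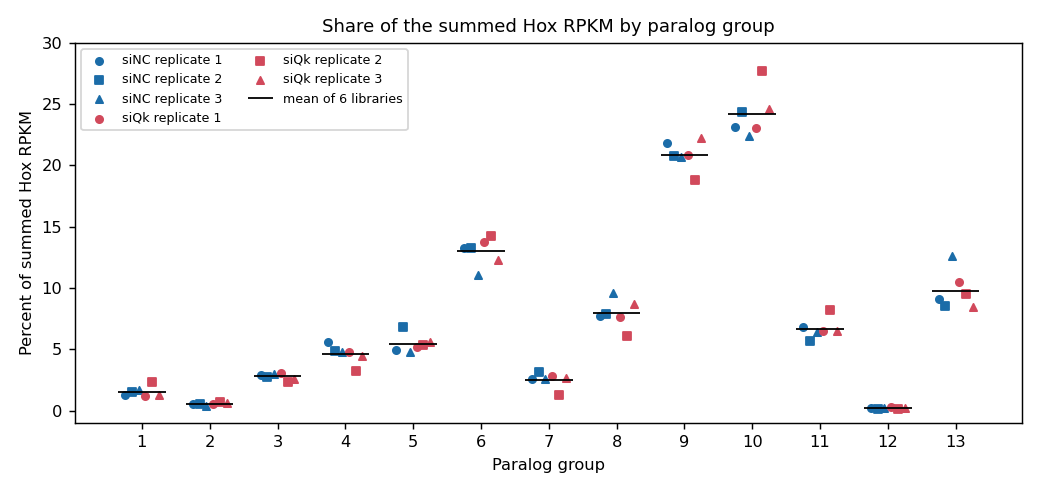
Share of the summed Hox RPKM (percent, vertical axis) held by each paralog group (horizontal axis) in each library, with a line at the mean of the 6 libraries. The Hox10 genes held 24.2% and the Hox9 genes 20.9% on average, paralog groups 1, 2 and 12 held at most 2.33% each in any library, and siNC and siQk points overlapped in every paralog group but 2 (0.388% to 0.5495% in siNC and 0.552% to 0.688% in siQk).

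Promoter windows were read to show what lies in front of neighbours and paralogs of unlike level. RefSeq windows (GRCm38.p6, 250 bases before to 50 after the annotated start) were found for 22 of the 39 genes, 24 windows in all. Hoxd13 and Hoxd12 are shown because they are adjacent and differed in level most within HoxD, Hoxa13 because it is the silent paralog of Hoxd13, and Hoxb4 and Hoxb8 beside Hoxd4 and Hoxd8 because the HoxB copies had no count while their HoxD paralogs were expressed. The windows are chr2:74667975-74668274, chr2:74674763-74675062, chr11:96318017-96318316, chr2:74721728-74722027, chr11:96281655-96281954 and chr2:74704365-74704664 on the plus strand and chr6:52260831-52261130 on the minus strand. Each is written 5′ to 3′ along its gene, in lower case, with CpG dinucleotides in capitals.
Hoxd13: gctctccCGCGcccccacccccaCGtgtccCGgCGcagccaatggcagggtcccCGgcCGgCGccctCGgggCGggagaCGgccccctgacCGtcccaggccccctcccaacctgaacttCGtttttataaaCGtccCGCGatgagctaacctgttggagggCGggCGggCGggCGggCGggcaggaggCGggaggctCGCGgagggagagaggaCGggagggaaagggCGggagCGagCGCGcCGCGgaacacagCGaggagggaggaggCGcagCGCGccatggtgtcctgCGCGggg
Hoxd12: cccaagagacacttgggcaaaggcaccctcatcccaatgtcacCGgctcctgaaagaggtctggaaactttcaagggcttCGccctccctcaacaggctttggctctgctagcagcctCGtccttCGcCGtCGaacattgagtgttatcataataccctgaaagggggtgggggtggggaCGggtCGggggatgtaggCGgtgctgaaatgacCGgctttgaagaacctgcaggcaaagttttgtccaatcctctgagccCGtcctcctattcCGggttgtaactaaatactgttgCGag
Hoxa13: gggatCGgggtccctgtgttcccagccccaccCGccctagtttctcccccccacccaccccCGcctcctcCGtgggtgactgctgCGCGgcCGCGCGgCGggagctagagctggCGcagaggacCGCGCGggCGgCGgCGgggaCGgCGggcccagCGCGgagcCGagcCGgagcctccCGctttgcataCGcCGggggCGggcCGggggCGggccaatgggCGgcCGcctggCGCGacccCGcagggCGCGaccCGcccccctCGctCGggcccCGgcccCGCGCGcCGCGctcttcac
Hoxb4: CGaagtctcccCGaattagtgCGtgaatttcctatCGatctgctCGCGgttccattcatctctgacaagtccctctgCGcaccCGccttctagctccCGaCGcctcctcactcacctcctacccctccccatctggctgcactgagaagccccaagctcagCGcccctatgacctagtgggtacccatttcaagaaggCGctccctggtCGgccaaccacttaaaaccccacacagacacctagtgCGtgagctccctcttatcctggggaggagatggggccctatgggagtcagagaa
Hoxd4: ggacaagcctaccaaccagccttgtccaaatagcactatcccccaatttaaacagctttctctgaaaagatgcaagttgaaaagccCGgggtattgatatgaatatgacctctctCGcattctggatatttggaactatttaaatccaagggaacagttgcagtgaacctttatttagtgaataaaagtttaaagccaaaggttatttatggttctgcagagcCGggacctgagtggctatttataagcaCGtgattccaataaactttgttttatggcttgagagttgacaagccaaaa
Hoxb8: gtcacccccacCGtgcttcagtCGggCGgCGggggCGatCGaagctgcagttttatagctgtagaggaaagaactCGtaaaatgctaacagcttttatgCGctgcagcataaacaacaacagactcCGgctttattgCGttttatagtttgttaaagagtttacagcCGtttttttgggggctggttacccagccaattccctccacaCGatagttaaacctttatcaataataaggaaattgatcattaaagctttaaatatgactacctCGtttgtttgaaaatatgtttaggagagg
Hoxd8: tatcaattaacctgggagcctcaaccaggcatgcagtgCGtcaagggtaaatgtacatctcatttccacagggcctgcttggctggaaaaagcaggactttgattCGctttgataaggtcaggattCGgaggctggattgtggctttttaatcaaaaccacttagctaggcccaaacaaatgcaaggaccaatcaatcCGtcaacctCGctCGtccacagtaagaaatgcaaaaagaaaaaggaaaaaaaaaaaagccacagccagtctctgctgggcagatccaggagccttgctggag
CpG dinucleotides numbered 37 in the Hoxd13 window, 13 in Hoxd12, 45 in Hoxa13, 14 in Hoxb4, 4 in Hoxd4, 13 in Hoxb8 and 6 in Hoxd8, and the median over all 32851 windows was 7. Windows of Hox genes at 1 RPKM or more had a median of 20 CpG (18 windows) and those of lower or silent Hox genes one of 13 (6 windows), and their ranges of 4 to 37 and 9 to 45 overlapped. The silent Hoxa13 had the most CpG of the 24 Hox windows, while Hoxa9, at 11.1 RPKM, had 4, the fewest, shared with Hoxd4 and with 1 of the 2 Hoxd11 windows. Over the 24 Hox windows the median was 14.5. The bipartite Hox-Pbx letters TGATNNAT, searched on both strands, were in 4 of 24 Hox windows (16.7%), those of Hoxa2, Hoxb1, Hoxb8 and 1 of Hoxd11, and in 8.85% of all windows. The Cdx letters TTTATGG, also on both strands, were in 1 Hox window (4.17%), that of Hoxd4, and in 2.75% of all windows. These matches are descriptions of the letters only.

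No read was counted for any HoxB gene in any library. The 10 genes (chr11:96194316-96368254, GRCm38, plus strand) run from Hoxb1, a hindbrain gene, to Hoxb13, a gene of the tail end. With 286524007 counts in all, 3 counts over the 6 libraries, the limit that a count of 0 allows, would be 0.00281 to 0.00825 RPKM depending on the gene's exon length, and this limit covers counting error only. Against this limit, each HoxB gene was lower than every paralog at 1 RPKM or more. Hoxb9 was at least 3207-fold lower than Hoxc9 and at least 2845-fold lower than Hoxa9, Hoxb6 at least 1965-fold lower than Hoxc6, and Hoxb5 at least 1429-fold lower than Hoxa5. Over the 15 such pairs the bounds ran from 318-fold (Hoxb1 against Hoxd1) to 3207-fold. These are bounds on counted reads, and whether the authors' alignment and annotation could count reads from the HoxB genes was not tested.

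The empty stretch was wider than the cluster. From Calcoco2, which encodes an autophagy receptor, to Skap1, an adaptor of T cells, 17 consecutive listed genes on chromosome 11 had 8 counts in total over the 6 libraries, 1 of Calcoco2 and 7 of Skap1, and 15 of them had none. The stretch spans 661 kb (chr11:96098916-96759622) and includes, besides the HoxB genes, Ttll6, Gm53, Gm11529 and the genes of the microRNAs Mir196a-1 and Mir10a. The genes on either side were expressed in every library. Atp5g1, a subunit of mitochondrial ATP synthase, had 964 to 2186 counts and Snx11, a sorting nexin, 997 to 1754. Across the genome, 31.5% of the 22955 listed genes with a position had fewer than 10 counts over the 6 libraries, and 58 runs of such genes were as long as this one or longer, the longest with 219 genes. Next to the other 3 clusters, Evx1 and Evx2 were at or near 0 as given above, and genes farther out or on the other side had counts in every library. Hibadh, beyond Evx1 next to HoxA, had 24.1 to 28.8 RPKM, Skap2, on the other side of HoxA, 11.95 to 16.4 RPKM, Smug1 and Calcoco1, next to HoxC, 6.03 to 11.2 RPKM and 7.31 to 13.8 RPKM, and Mtx2 and Lnpk, next to HoxD, 52.4 to 87.7 RPKM and 6.28 to 8.16 RPKM. The tables hold counts of RNA only, and the cause of the empty stretch was not tested.

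**Figure D3:**
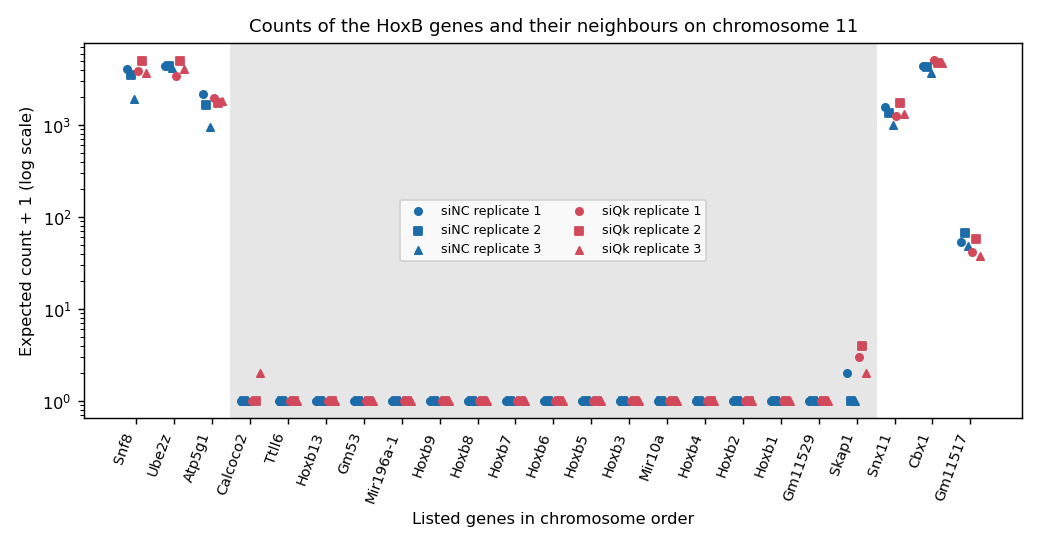
Expected count plus 1 (log scale, vertical axis) of each listed gene in chromosome order around the HoxB cluster in each library, with the 17 genes of the empty stretch on grey. Only Calcoco2 and Skap1 had any count inside the stretch, at most 3 in a library, while Atp5g1 and Snx11 on either side had 964 or more.

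Noncoding genes of the clusters were listed in part, 9 of the 16 looked for. Hoxa11os, which lies on the strand opposite Hoxa11, had 7.23 to 11.3 RPKM, and Hoxaas3, which overlaps Hoxa3 and Hoxa7 on the opposite strand, 1.43 to 3.34 RPKM. The library kit keeps no strand, so reads of these genes and of the Hox exons they overlap (34.98% of the Hoxa11 exon bases and 20.4% of those of Hoxa7 in GENCODE M21) cannot be told apart. Hotair, a HoxC antisense RNA, had 0.0314 to 0.0691 RPKM. The 6 listed microRNA genes had at most 14 counts each over the 6 libraries, which poly-A selection of longer RNA does not measure well. Hoxd3 and Hoxd4 share exon bases with each other and with further transcripts (62.8% and 52.3% of their exon bases), so their separate levels are uncertain.

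The order of levels is described by the 6 within-library differences of log2(RPKM + 0.1) between the 19 neighbouring pairs of the 20 expressed genes, with no test, since the same values set the order. Hoxa5 was above Hoxa6 by 0.66 on the log2 scale (SD 0.18), Hoxc8 above Hoxd3 by 0.46 (SD 0.23) and Hoxd3 above Hoxc4 by 0.16 (SD 0.18), each in 6 of 6 libraries. Hoxc6 and Hoxd13 differed by 0.02 (SD 0.26), and the 5 genes from Hoxd9 to Hoxd8 in the order, with Hoxa10, Hoxd10 and Hoxa11 between them, had means of 8.53 to 9.55 RPKM and in each of the 4 neighbouring pairs among them the first gene was higher in 3 of 6 libraries.

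The design asks which transcripts change when Qk is depleted. Among the Hox genes, none did in counts per gene by the cutoffs the study used (p under 0.01 and adjusted p under 0.1). The study reports few changes in gene level after Qk knockdown and many in exon usage. Counts per gene cannot show exon usage, and that of the Hox genes was not tested. Over all genes, 1 of 12665 tested genes was called (0.00790%), which was Qk itself. The study also reports L3hypdh, Daam2 and Snap23 as lower at these cutoffs. Of the 39 Hox genes, 23 passed the filter (mean log2 CPM above 0) and 0 were called by the quasi-likelihood test of edgeR, by its exact and likelihood-ratio tests or by DESeq2. At an unadjusted p under 0.05, 0 of 23 passed by any of these 4 tests, where 3.00% of all tested genes did by the quasi-likelihood test. The log2 fold changes ran from -0.24 (Hoxa7) to 0.81 (Hoxd11), 11 below 0 and 12 above, with a median of 0.08 against 0.0027 for all tested genes. Standard errors of these fold changes ran from 0.14 to 0.70, with a median of 0.27 against 0.21 for all tested genes. With 3 libraries a group, changes well above these errors could also go uncalled. Isl1, with a log2 fold change of 0.82 and an SE of 0.10, had an adjusted p of 0.9998 (quasi-likelihood F test).

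Hoxd11 had the largest difference of the tested members, with a log2 fold change of 0.81 (SE 0.57, unadjusted p = 0.132). Its siQk values of 2.06 and 1.74 RPKM lay above every siNC value, while siQk replicate 2, at 0.628 RPKM, lay among the siNC libraries. Without siQk replicate 2 the log2 fold change was 1.20 (unadjusted p = 0.00986, adjusted p = 0.9999, edgeR), and without siQk replicate 1 it was 0.49 (unadjusted p = 0.400), the ends of its range with 1 library left out. Hoxd10, its neighbour, had a log2 fold change of 0.31 (SE 0.26, unadjusted p = 0.244) and Hoxc10 one of 0.19 (SE 0.19, unadjusted p = 0.354). With 1 library left out, Hoxd10 ranged from 0.14 without siNC replicate 3 to 0.59 without siNC replicate 2 (unadjusted p = 0.0342, adjusted p = 0.9996, edgeR), and Hoxc10 from 0.038 without siNC replicate 3 to 0.29 without siNC replicate 2. The forelimb gene Hoxc6 had 0.13 (SE 0.19, unadjusted p = 0.545) and the thoracic gene Hoxc9 0.09 (SE 0.29, unadjusted p = 0.718). Hoxd13 had -0.02 (SE 0.16, unadjusted p = 0.930), so its groups differed by far less than their spread.

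The groups did not overlap for 1 of 23 tested Hox genes (4.35%), while they did not for 8.84% of all tested genes. That gene was Hoxa2, with 0.841, 0.942 and 0.484 RPKM in siNC and 0.966, 0.966 and 1.06 RPKM in siQk and a log2 fold change of 0.36 (SE 0.26, unadjusted p = 0.304). The siNC values reached down to 0.484 RPKM in siNC replicate 3, and without that library the log2 fold change was 0.16 (unadjusted p = 0.612). Hoxa4, which fell below the filter, also had groups that did not overlap. It had 70, 47 and 36 counts in siNC and 14, 39 and 23 in siQk, or 0.900, 0.650 and 0.548 RPKM in siNC and 0.201, 0.476 and 0.327 RPKM in siQk (p = 0.1 in an exact permutation test, two-sided, which cannot go lower with 3 libraries a group). In a fit with no filter its log2 fold change was -1.08 (unadjusted p = 0.0244, adjusted p = 0.990, edgeR). Every siQk value lay below every siNC value, and the difference did not pass the adjusted test.

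**Figure D4:**
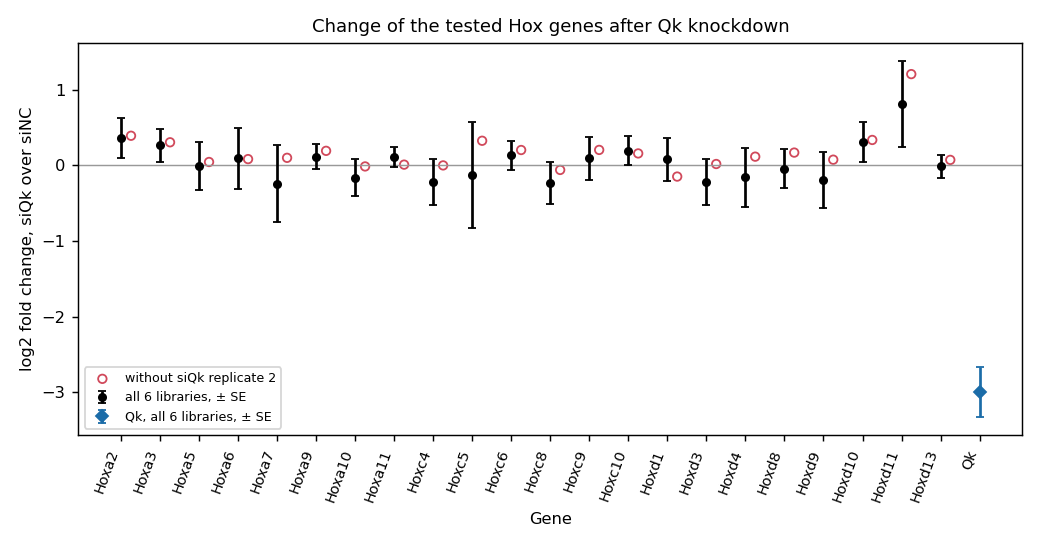
Log2 fold change of siQk over siNC (vertical axis) for 22 of the 23 tested Hox genes and Qk, with standard errors from the spread of log2 CPM between libraries, and, as open circles, the value without siQk replicate 2. Hox values lay between -0.24 and 0.81 with all libraries, against -2.99 for Qk.

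Low Hox values gathered in siNC replicate 3 and siQk replicate 2. After TMM scaling, the lowest value of a gene was in siNC replicate 3 for 9 and in siQk replicate 2 for 10 of the 20 expressed Hox genes, 19 of 20 in all, while these libraries held the lowest value for 49.4% of all tested genes. In siNC replicate 3 most members were low together, and its summed Hox RPKM was 125 against 153 and 186 in the other siNC libraries. In RPKM, siQk replicate 2 was lower than all 5 other libraries for 10 of the 23 tested members (43.5%), and for 21.8% of all tested genes. These were Hoxa7, Hoxa10, Hoxc4, Hoxc5, Hoxc8, Hoxd3, Hoxd4, Hoxd8, Hoxd9 and Hoxd13. Hoxc5 was at 26.6%, Hoxa7 at 40.4%, Hoxd9 at 50.5% and Hoxd4 at 52.6% of the mean of the other 5. It was higher than all others for 4 of the 23 (17.4%), against 28.8% of all tested genes, among them Hoxd1 (142%), Hoxa11 (123%) and Hoxc10 (116%). The low members thus included 5 of the 8 expressed HoxD genes, but Hoxd10 was at 109%. With siQk replicate 2 left out, the median log2 fold change of the tested Hox genes was 0.10, and without siNC replicate 3 it was -0.04. siNC replicate 3 had the lowest total, 43000503 counts, and siQk replicate 2 the highest, 53565950 counts, and the part of depth in these differences was not tested.

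**Figure D5:**
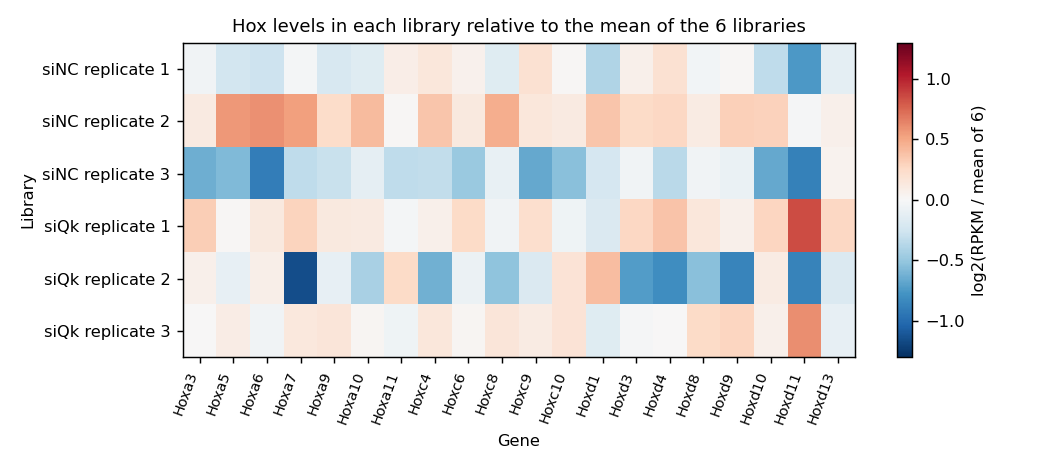
Level of the 20 expressed Hox genes (columns) in each library (rows) as the log2 of its RPKM over the mean of the 6 libraries, blue for lower and red for higher. siNC replicate 3 was low for most genes. Among others, siQk replicate 2 was low for Hoxa7, Hoxc4, Hoxc8, Hoxd3, Hoxd4, Hoxd8, Hoxd9 and Hoxd11.

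The shares of the clusters did not separate the groups. HoxA gave 32.1% ± 2.13 of the summed Hox RPKM in siNC and 31.7% ± 1.46 in siQk (SD, n = 3 each), HoxC 33.7% ± 3.20 and 35.4% ± 1.51, and HoxD 34.2% ± 3.08 and 32.9% ± 2.95. By paralog group, the Hox10 and Hox11 genes gave 29.6% ± 0.713 in siNC and 32.2% ± 3.37 in siQk, the largest difference between groups of genes, and the siQk values ran from 29.5% to 35.9% through siQk replicate 2. The ratio of Hoxd13 to Hoxd12 was 6.77 on the log2 scale in siNC and 6.42 in siQk (two-sided exact permutation p = 0.5).

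Transcripts of proteins that act with Hox proteins were present. All 9 TALE cofactors passed the filter, and 7 had a mean of 1 RPKM or more. Pbx4 had a mean of 19.4, Pbx2 18.5 and Pbx3 12.7 RPKM, and Meis1, Meis2 and Meis3 had 5.76, 3.77 and 10.1 RPKM. None of the 9 was called in either direction (0.00790% of all tested genes were), 3 were lower and 6 higher, and the median log2 fold change was 0.14. Pbx3 had a log2 fold change of 0.30 (SE 0.20, unadjusted p = 0.154) and Pknox1 one of -0.21 (SE 0.18, unadjusted p = 0.309). Pbx3 was higher in all 3 siQk libraries than in any siNC library.

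Transcripts of both chromatin systems that hold Hox states were present. All 23 listed Polycomb genes had a mean of 1 RPKM or more, led by the histone-binding subunits Rbbp7 (239 RPKM) and Rbbp4 (104 RPKM) and by Rnf2, the ubiquitin ligase of Polycomb complex 1 (67.1 RPKM). The H3K27 methyltransferase Ezh2 had 46.1 RPKM and its partner Eed 39.3 RPKM. None of the 23 was called, 7 were lower and 16 higher, and the median log2 fold change was 0.06. Cbx6, a chromodomain subunit, had a log2 fold change of -0.34 (SE 0.24, unadjusted p = 0.120) and Aebp2, an accessory subunit of Polycomb complex 2, one of -0.29 (SE 0.26, unadjusted p = 0.198). All 9 trithorax and H3K27 demethylase genes were likewise expressed, with Dpy30 at 117, Ash2l at 67.5 and Wdr5 at 36.6 RPKM, all subunits of the H3K4 methyltransferase core, and with the H3K27 demethylase Kdm6b at 22.6 RPKM. None was called, 4 were lower and 5 higher, with a median of 0.13. Dpy30 had a log2 fold change of 0.31 (SE 0.07, unadjusted p = 0.0594), Men1 0.29 (SE 0.14, unadjusted p = 0.113) and Rbbp5 -0.25 (SE 0.17, unadjusted p = 0.194).

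Upstream inducers were patchy. Of 27 genes of retinoic acid, Cdx and other posteriorizing signals, 11 had a mean of 1 RPKM or more and 12 passed the filter. Crabp1, a retinoic acid-binding protein, had a mean of 54.4 RPKM, Stra6, a retinol transporter, 14.6 RPKM, and the receptors Rxrb, Rara and Rarg 13.3, 11.7 and 10.5 RPKM. The retinoic acid-synthesizing enzyme Aldh1a3 had 7.31 RPKM, while its relative Aldh1a2, the main source in the trunk, had 1 count over the 6 libraries. Rarb and Cyp26a1, which retinoic acid induces in many cells, had 0.0378 to 0.132 RPKM and 0 to 0.0783 RPKM. Cdx1 and Cdx2 had 1 count each and Cdx4 none, so the caudal-type activators of Hox genes were at or near 0. None of the 12 tested was called, 7 were lower and 5 higher, and the median was -0.11. The smallest p-values belonged to Rxrb, with a log2 fold change of -0.26 (SE 0.11, unadjusted p = 0.166), Gdf11, with -0.20 (SE 0.31, unadjusted p = 0.466), and Rarg, with -0.19 (SE 0.33, unadjusted p = 0.491).

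Genes that mark territory in front of the Hox domain were in part silent and in part expressed. Of 10 forebrain, midbrain and isthmus factors, Emx1, En1 and Gbx2 had no count, Emx2 had 2 and Otx2 had 1 count over the 6 libraries. Six3, a forebrain and eye factor, had 8.50 to 13.7 RPKM, En2, a midbrain and hindbrain factor, 4.16 to 7.86 RPKM, and Gbx1 1.18 to 2.51 RPKM. Otx1 had 0.545 to 0.944 RPKM. No tested member was called (4 tested, 1 lower, 3 higher, median log2 fold change 0.09), with Six3 at 0.21 (SE 0.22, unadjusted p = 0.349), Gbx1 at -0.21 (SE 0.35, unadjusted p = 0.530) and Otx1 at 0.11 (SE 0.26, unadjusted p = 0.725).

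Among 15 motor column and pool factors, which act downstream of or beside Hox proteins, Ret, the receptor of the GDNF family, had a mean of 176 RPKM, and the pool factors Etv4 and Etv1 36.2 and 11.8 RPKM. Foxp1, the Hox cofactor of limb-innervating motor neurons, had 2.34 to 3.72 RPKM. Pou3f1 and Nkx6-1 had no count. None of the 10 tested was called by the quasi-likelihood test (4 lower, 6 higher, median 0.09). Isl1, a LIM homeodomain factor of motor and sympathetic neurons, had 4.83, 4.75 and 4.80 RPKM in siNC and 9.63, 7.80 and 8.33 RPKM in siQk, groups that did not overlap, and a log2 fold change of 0.82 (SE 0.10, unadjusted p = 0.00116), with an adjusted p of 0.9998 (edgeR). DESeq2 called it (adjusted p = 0.0329), and the exact and likelihood-ratio tests of edgeR did not (adjusted p = 0.162 and 0.159). Lhx4, a partner of Isl1 in motor neuron specification, had a log2 fold change of 1.07 (SE 0.40, unadjusted p = 0.0280), and Etv4 one of -0.27 (SE 0.14, unadjusted p = 0.128). Of the genes flanking the clusters, 6 of 10 were tested and none was called (4 lower, 2 higher, median -0.09), with Mtx2 at 0.24 (SE 0.17, unadjusted p = 0.209), Smug1 at -0.25 (SE 0.26, unadjusted p = 0.300) and Skap2 at -0.12 (SE 0.13, unadjusted p = 0.550). Neither of the tested noncoding genes was called, with Hoxa11os at 0.02 (SE 0.18, unadjusted p = 0.942) and Hoxaas3 at 0.19 (SE 0.38, unadjusted p = 0.619).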

How the data were processed

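The authors selected poly-A RNA, prepared libraries with a TruSeq version 2 kit, sequenced read pairs of 75 bases, used OLego for alignment and Quantas for gene counts. The labels name the mm10 build, and the files hold no coordinates. The deposited tables give an expected count and an RPKM per gene, and 21.9% to 22.9% of expected counts per library were not whole. RPKM was deposited by the authors and could be rebuilt from count, exon length and column total.

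Expected counts were rounded. Genes with a mean log2 CPM above 0 were kept after TMM scaling and tested in edgeR 4.0.16 (R 4.3.3) by quasi-likelihood F test, siQk against siNC, with Benjamini-Hochberg adjustment over 12665 genes. Standard errors come from the spread of log2 CPM (prior count 2) between libraries. Positions come from RefSeq (GRCm38.p6, 99.6% of listed genes matched by Entrez identifier) and exon overlaps from GENCODE M21. The alternatives were other scalings, filters and tests (DESeq2 1.42.0 among them), a replicate block and leaving out each library. The scripts were tested on simulated data. Replicate libraries differed by more than sampling noise (at least 22.2 chi-square per degree of freedom).

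All Hox genes were accounted for, those with a mean of 1 RPKM or more by library. In the gene lists, called genes, the 3 highest and the 3 of smallest p were named, and others where their role or a count of 0 bore on the list, chosen after their values were seen. Values of 1 Hox gene and of some list genes are not reported here, and the counts, sums and medians include them. Paralog groups were joined into body levels after the values were seen, and the members and lists were chosen with earlier results of these data known.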

Additional observations from a re-analysis of the deposited data

How the results depend on the processing

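No Hox gene was called under any of the 15 alternatives, and the number of Hox genes at 1 RPKM or more was 19 to 20 with 1 library left out, 24 at 0.5 RPKM or more, 17 at 2 RPKM or more and 24 at 1 TPM or more. Over all genes, 1 gene was called by the quasi-likelihood test, 5 by the edgeR exact test, 5 by the likelihood-ratio test and 19 by DESeq2. Without siNC replicate 1, 0 were called, and Qk kept a log2 fold change of -3.08 with an adjusted p of 0.117 (quasi-likelihood F test). With 1 library left out the count of called genes ranged from 0 to 1 and the Qk log2 fold change from -3.19 to -2.67. Isl1 was the 1 motor column factor called by DESeq2, an alternative for the lists that was added after seeing the data. As shares of expected counts, which are not per length, HoxA came to 34.2% and HoxC to 31.6%.

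Directions of single Hox genes were not settled by these libraries. Of 330 single-gene values under alternatives, 21 had the opposite sign and 9 of 22 genes never changed sign. Hoxa5 was 0.0029 with total counts and 0.047 with the replicate block, and Hoxd13 was 0.0086 with total counts. With 1 library left out, the log2 fold change ranged from -0.21 to 0.35 for Hoxa5, from -0.17 to 0.54 for Hoxa6, from -0.50 to 0.10 for Hoxa7, from -0.27 to 0.012 for Hoxa10, from -0.47 to 0.32 for Hoxc5, from -0.014 to 0.21 for Hoxc6, from -0.12 to 0.24 for Hoxc9, from -0.15 to 0.31 for Hoxd1, from -0.45 to 0.016 for Hoxd3, from -0.44 to 0.11 for Hoxd4, from -0.20 to 0.17 for Hoxd8, from -0.44 to 0.073 for Hoxd9 and from -0.17 to 0.070 for Hoxd13. Among genes that kept their sign it ranged from 0.16 to 0.52 for Hoxa2, from 0.10 to 0.39 for Hoxa3, from 0.037 to 0.26 for Hoxa9, from 0.0078 to 0.19 for Hoxa11, from -0.37 to -0.0025 for Hoxc4 and from -0.40 to -0.038 for Hoxc8. The median over the tested Hox genes, which was negative without siNC replicate 1 or siNC replicate 3, ranged from -0.07 to 0.18.

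No label pairs the libraries by replicate number. Deviations of same-numbered libraries correlated at 0.21, 0.02 and -0.17, and those of other pairs at -0.25 to 0.20. These are too few values to settle whether the numbers pair the libraries. With the replicate number as a block, 1 gene and 0 Hox genes were called and the Hox median was 0.07. The filter on low counts left out Hoxa4, Hoxc11, Hoxc12, Hoxc13 and Hoxd12, with 16 to 229 counts over the 6 libraries, and Hoxa13 and the HoxB genes, which had 1 and 0 counts. For the 23 tested genes the spread between 3 libraries a group limits what can be seen.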
